A study of Homo sapiens with 12 samples.

Results

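Androgen-treated C4-2 cells were compared with vehicle-treated cells after both had received a nonspecific small interfering RNA (siRNA). The comparison used 6 of the 12 libraries of the series, chosen by their labels: 3 libraries from cells given 2.5 nM dihydrotestosterone (DHT) for 24 h and 3 from cells given the ethanol vehicle for 24 h. C4-2 is a castration-resistant line derived from LNCaP prostate cancer cells. Cells of all 6 libraries had been transfected with the nonspecific siRNA for 48 h and kept without serum for 12 h before the hormone or vehicle was added, so vehicle and DHT cells shared the transfection and the serum starvation. The other 6 libraries came from cells given siRNA against paxillin and the same pair of treatments. Of 56269 gene symbols in the count table, 16115 had enough counts to be tested.

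DHT is the most potent natural androgen. Androgens enter the cell and change transcription, and in the luminal cells of the prostate they drive the making of secreted proteins and lipids and also lower the transcripts of many genes. Castration-resistant prostate cancer grows when circulating androgen is low, and its cells often still respond to the hormone.

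The 6 libraries held between 11944906 and 28298195 counts. Vehicle replicate 1 was the shallowest, with 11944906 counts, and the other 5 had at least 24207745. Mitochondrially encoded transcripts took 4.43% to 4.98% of counts in vehicle and 3.17% to 4.53% with DHT. All 12 luminal and C4-2 defining markers were tested. Their summed level was 9337 to 11119 CPM in vehicle and 18234 to 19378 with DHT. CPM are counts per 1000000 of a library total multiplied by its TMM scaling factor. The basal marker TP63, the fibroblast marker DCN and the T cell marker CD3E had 0 counts in all 6 libraries. Summed levels over 5 neuroendocrine markers were 5.46 to 7.75 CPM in vehicle and 8.87 to 10.8 with DHT, and over 6 fibroblast markers, nearly all COL1A1, 39.7 to 49.9 and 35.2 to 39.0, so that neither pair of ranges overlapped. Those over 5 basal markers were 0.245 to 1.01 and 0.872 to 1.27, over 5 leukocyte markers 0.0815 to 0.263 and 0.0436 to 0.262, and over 4 endothelial markers, nearly all VWF, 10.0 to 13.9 and 9.64 to 12.9. The part of such cells in the results was not tested. The labels do not say whether replicates were separate cultures, so the p-values measure the spread between these libraries, which may be technical. In these bulk samples fewer cells of a type and less RNA per cell cannot be told apart.

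A gene was called when its Benjamini-Hochberg adjusted p in edgeR's quasi-likelihood test was under 0.05. The test called 6534 genes, 40.5% of those tested. Of all tested genes, 21.6% were higher with DHT (3481) and 18.9% were lower (3053), so that 53.3% of the calls were rises. Upper-quartile scaling of the libraries gave 2707 rises and 3896 falls, with 41% of the calls being rises, since it moved the median log2 fold change of all genes from -0.0094 to -0.0817, a shift of -0.0722. The 3 values of one group lay wholly above or below those of the other for 8115 genes, 50.4% of those tested.

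Most called genes moved by a modest amount. A change under 2-fold was found for 78.1% of them, while 595 genes (3.69% of those tested) rose and 833 (5.17%) fell at least 2-fold. Summed over the called genes, levels rose by 143524 CPM and fell by 44200 CPM (both on the main scaling). The scaling factors were 1.03 to 1.06 in vehicle and 0.929 to 0.949 with DHT. Dividing by them lowers CPM in the vehicle libraries and raises it in the DHT libraries, so these sums are not a balance of transcripts. The 8 largest gains made up 15.5% of the gain. Chosen for their gain in CPM, a level that is not scaled by transcript length, these genes included KLK3, FASN, ODC1, GDF15, TMPRSS2, ABHD2 and SLC45A3. The products of these 7 are secreted or membrane proteins and the enzymes of fatty acid and polyamine synthesis. The 8 genes that lost most CPM were SYT4, MME, FOLH1, ST3GAL1, SELENBP1, KIF5B, CYB561A3 and MAOA, which together made up 11.2% of the loss.

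**Figure D1:**
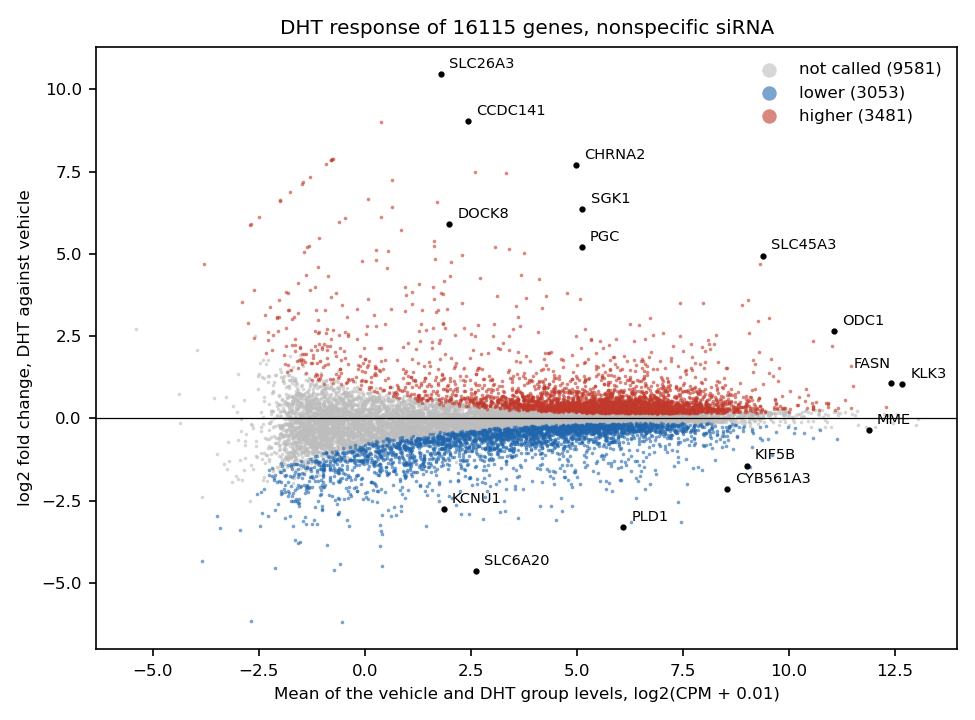
Each point is 1 of 16115 tested genes, with the mean of the 2 group levels on the x axis (log2 of CPM + 0.01) and the log2 fold change of DHT against vehicle on the y axis. Points are coloured by the call, and rises reach higher than falls: CHRNA2 sits at 7.71 and SLC6A20 at -4.65 (genes with 0 vehicle counts, such as SLC26A3, have a fitted fold change that depends on the prior count).

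Among the largest rises by fold was SGK1, a serum- and glucocorticoid-regulated kinase. Its levels were 0.652, 0.814 and 0.940 CPM in the vehicle libraries and 81.7, 59.0 and 66.5 CPM with DHT, a log2 fold change of 6.36 ± 0.17 (SE). PGC, which encodes the digestive protease precursor pepsinogen C, stood at 2.93, 1.63 and 1.43 CPM in vehicle and 75.8, 61.3 and 64.7 CPM with DHT, 36.9-fold higher. In both genes all 3 DHT libraries lay far above all 3 vehicle libraries. DOCK8, an exchange factor for small GTPases of the cytoskeleton, had 0.163, 0.116 and 0.113 CPM in vehicle and 7.50, 8.80 and 7.05 CPM with DHT (60.4-fold). In these vehicle libraries 1 count was worth 0.0815, 0.0388 and 0.0376 CPM, so the fold rests on few vehicle counts. TTN, the giant muscle protein titin, had 0, 0.271 and 0.113 CPM in vehicle and 8.27, 4.62 and 5.17 CPM with DHT, 37.9-fold higher, with 10 counts over the vehicle group. Its log2 fold change, 5.24 ± 0.44, was 6.20 without vehicle replicate 2, which held 7 of those counts.

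SLC45A3, a membrane transporter of prostate epithelium and a known partner in ETS gene fusions, combined a large fold with a large gain. It measured 47.1, 40.3 and 39.7 CPM in vehicle and 1449.7, 1195 and 1254 CPM with DHT, 30.9-fold higher. GDF15, a secreted member of the TGF-beta family, went from 751 ± 72.9 to 3432 ± 355 CPM (mean ± SD, n = 3 in each group). ABHD2, a lipid hydrolase, went from 1979 ± 149 to 3905 ± 255 CPM, a log2 fold change of 0.98 ± 0.08 and a gain of 1927 CPM.

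The 8 genes that lost most CPM fell by between 1.28-fold (MME) and 4.44-fold (CYB561A3). SYT4, a synaptotagmin, fell from 2719.8 ± 370.0 to 1768 ± 105 CPM, and MME, the cell surface peptidase neprilysin, from 4235 ± 219 to 3313 ± 97.6 CPM. FOLH1, which encodes the prostate-specific membrane antigen, measured 1809.9, 1918 and 1755 CPM in vehicle and 1177, 1241 and 1213 CPM with DHT. The monoamine oxidase MAOA fell 1.38-fold and the kinesin KIF5B 2.71-fold. CYB561A3, a cytochrome b561 family reductase, had 529, 610.3 and 676 CPM in vehicle and 106, 153 and 149 CPM with DHT. The vehicle and DHT values of all 8 genes did not overlap.

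KLK3 and KLK2 lie next to each other on chromosome 19 and encode the secreted kallikrein proteases PSA and hK2. Both rose, as did the pseudogene KLKP1 beside them, but by different amounts. KLK3 measured 5026, 4030.2 and 3704 CPM in vehicle and 8776, 8720.0 and 8885 CPM with DHT, a log2 fold change of 1.05 ± 0.11. KLK2 measured 199, 125 and 101 CPM in vehicle and 1217, 1019.6 and 1025 CPM with DHT, a log2 fold change of 2.95 ± 0.20. The groups did not overlap for either gene, and vehicle replicate 1 was the highest vehicle library in both. Their promoter windows run from 250 bases before to 50 bases after the start in RefSeq's GRCh38.p14, both on the plus strand. They are shown because their best matches to the element described next begin at nearly the same place. The capitals mark the best match to a pair of inverted AGAACA hexamers 3 bases apart, the letters that steroid receptor dimers are known to prefer.
KLK3, chr19:50854665-50854964: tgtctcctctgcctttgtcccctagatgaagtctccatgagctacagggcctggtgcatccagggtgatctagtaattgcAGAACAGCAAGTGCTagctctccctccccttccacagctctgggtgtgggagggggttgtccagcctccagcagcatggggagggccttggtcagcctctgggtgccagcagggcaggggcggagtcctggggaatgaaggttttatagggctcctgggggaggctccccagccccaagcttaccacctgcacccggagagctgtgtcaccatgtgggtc
KLK2, chr19:50873189-50873488: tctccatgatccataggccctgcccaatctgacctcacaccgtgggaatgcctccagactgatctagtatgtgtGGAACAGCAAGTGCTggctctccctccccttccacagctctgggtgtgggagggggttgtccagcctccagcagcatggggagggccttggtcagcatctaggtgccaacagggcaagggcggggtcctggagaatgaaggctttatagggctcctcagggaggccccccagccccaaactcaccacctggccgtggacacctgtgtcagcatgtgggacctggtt
The match in KLK3 began 170 bases before the start and held 10 of the 12 letters compared, and that in KLK2 began 176 bases before its start and held 9 of 12. Every window has a best match, and that of KLK2 falls short of the 10 letters asked for in the count that follows. How many other windows reach 9 letters was not counted. The aligned windows were identical at 84.2% of 291 bases, with 18 gap bases.

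The same letters were counted in the windows of 10461 tested genes (both strands, chromosome 8 left out). A pair with at least 10 of 12 letters stood in 0.516% of all windows, in 0.422% of those of genes called higher and in 0.662% of those called lower. It stood in 1.65% (6 of 363) for genes at least 2-fold higher and in 1.02% (5 of 488) for genes at least 2-fold lower. No window held all 12 letters. Besides KLK3, the 6 were PNLIPRP3, SLITRK6, TCAF2, PLA2G4A and FKBP11, named after their values were seen. The hexamer AGAACA alone, in either orientation, stood in 8.87% of all windows, in 11.6% of those at least 2-fold higher, in 16.1% (22 of 137) of those at least 4-fold higher and in 12.1% of those at least 2-fold lower. These are matches of letters and not measured binding.

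The lists of genes that follow are read against the 21.6% of all tested genes called higher and the 18.9% called lower. These shares depend on level and were not matched to the level of each list. Of the 5 groups of genes by mean CPM, the highest had 42.5% called higher and 13.5% lower, and the lowest 6.05% and 13.4%. A list of abundant genes with a share of rises near 42.5% is therefore not set apart by it. Of the nuclear receptor genes, 31 were tested, of which 7 rose and 10 fell, and the median was -0.15 on the log2 scale against -0.0094 over all genes. PGR, the progesterone receptor, fell from 2.51 ± 0.272 to 0.106 ± 0.0741 CPM, a log2 fold change of -4.48 ± 0.41, or -5.19 without DHT replicate 3. The groups did not overlap for PGR. RARB, a retinoic acid receptor, rose from 0.845 ± 0.0410 to 3.71 ± 0.608 CPM. The orphan receptors NR4A1 and NR4A2 went in opposite directions, NR4A1 up 3.65-fold and NR4A2 down 4.65-fold from 1.44 ± 0.328 CPM. The glucocorticoid receptor gene NR3C1 did not pass the filter on low counts.

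Transcription factors that open chromatin or mark luminal identity moved both ways: 8 of 24 rose and 6 fell, or 7 and 7 with upper-quartile scaling. SPDEF, an ETS factor of secretory epithelium, measured 96.8, 80.0 and 92.3 CPM in vehicle and 458, 373 and 375 CPM with DHT, 4.49-fold higher, and the epithelial factor GRHL2 rose 2.30-fold. FOXA1, a pioneer factor, had 384, 333 and 372 CPM in vehicle and 409, 376 and 398 CPM with DHT and was not called (edgeR quasi-likelihood test, Benjamini-Hochberg adjusted p = 0.167). GATA2 fell 1.29-fold and HOXB13 1.25-fold, each with groups that did not overlap.

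Coregulators gave 10 rises and 9 falls of 41, and 6 and 12 with upper-quartile scaling, under which the median of 0.0067 became -0.065. The groucho corepressor TLE3 changed most, from 449.5, 404 and 449.9 CPM in vehicle to 178, 175 and 184 CPM with DHT. The coactivators NCOA7 and NCOA3 fell 2.17-fold and 1.42-fold, and the corepressors LCOR and NRIP1 rose 1.45-fold and 1.44-fold. Vehicle and DHT values did not overlap in any of these 5 genes. Without vehicle replicate 2, 6 coregulators were called higher.

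Elongation factors gave 12 rises and 3 falls of 31, with 9 rises and 5 falls with upper-quartile scaling, and 1 fall left without either vehicle replicate 2 or 3 or DHT replicate 2 or 3. ELL2, which speeds RNA polymerase II, went from 29.1 ± 3.44 to 109 ± 4.68 CPM, and its partner EAF2 rose 3.93-fold. AFF3, of the super elongation complex family, rose 3.46-fold, while its relative AFF1 fell 1.38-fold. Of the Krüppel-like and SP factors, 9 of 18 rose and 2 fell (4 falls without vehicle replicate 1 or with upper-quartile scaling). KLF5, an epithelial regulator, measured 3.10, 3.45 and 2.90 CPM in vehicle and 25.4, 20.8 and 20.2 CPM with DHT, 7.01-fold higher. KLF15, known as a glucocorticoid-induced regulator of metabolism, rose 3.53-fold and KLF4 2.47-fold.

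Circadian clock genes gave 3 rises and 7 falls of 23. The period gene PER1 rose from 12.9 ± 0.888 to 38.3 ± 2.29 CPM, and its paralog PER3 fell from 31.0 ± 1.34 to 18.1 ± 0.860 CPM. The output factor DBP fell 1.43-fold. Vehicle and DHT values of these 3 genes did not overlap.

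**Figure D2:**
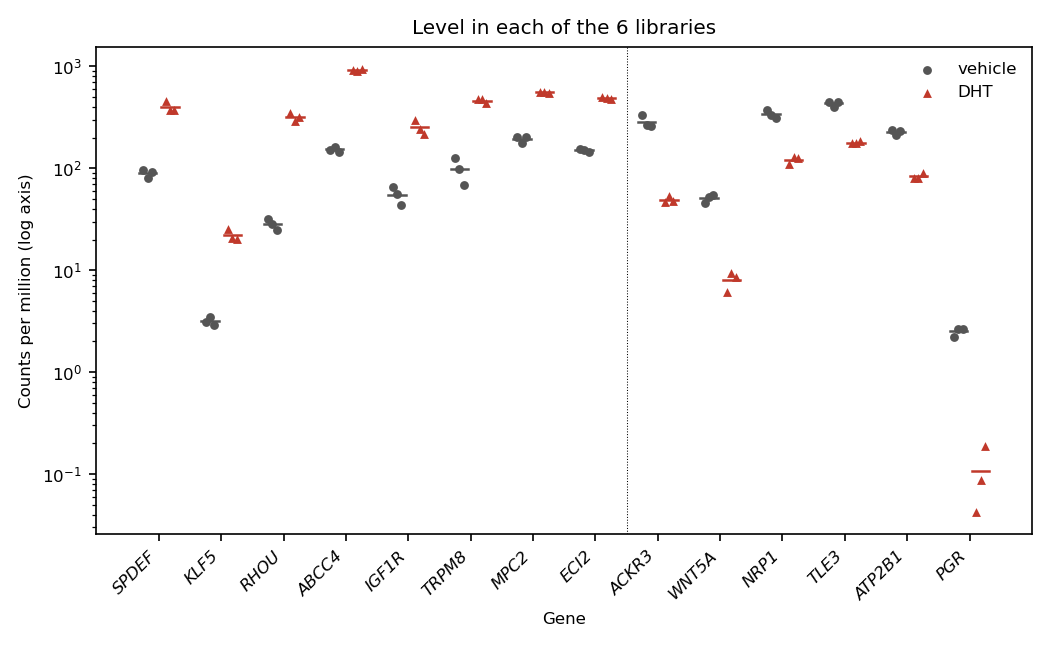
Points are the CPM of 14 genes described in the text in each of 3 vehicle (grey circles) and 3 DHT libraries (red triangles) on a log axis, with bars at the group means. Left of the dotted line are genes that rose and right of it genes that fell, and the 2 groups do not overlap in any of the 14.

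The machinery that carries proteins into and out of the endoplasmic reticulum rose broadly. Of the translocon and oligosaccharyl transferase genes, 27 of 35 rose and 1 fell, with a median log2 fold change of 0.43. The signal peptidase subunit SPCS3 measured 67.1, 57.4 and 50.4 CPM in vehicle and 127, 128 and 147 CPM with DHT, and the translocon-associated SSR3 224, 245 and 250.2 and 407, 481 and 553 CPM. The gene that fell was SEC61A2, a paralog of the channel's alpha subunit, by 1.40-fold. SEC61A1, the alpha subunit of the channel, rose from 1323 ± 45.6 to 1852 ± 206 CPM.

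Coat proteins of transport vesicles and Golgi tethers gave 39 rises and 1 fall of 52 (median 0.33), and 42 rises and 3 falls with the replicate number as a block or 34 and 3 with upper-quartile scaling. The COPII cargo adaptor SEC24D rose 2.26-fold from 44.8 ± 2.71 to 101 ± 9.27 CPM, the cargo receptor TMED9 1.82-fold and the mannose lectin LMAN1 1.65-fold. SEC31B, a COPII coat gene, was lower by 1.90-fold, from 2.52 ± 0.489 CPM, a call lost without vehicle replicate 2 or without DHT replicate 3 (log2 fold changes -0.80 and -0.71). Unfolded protein response genes gave 19 rises and 4 falls of 34, with 2 falls left without vehicle replicate 1 or 3 or DHT replicate 1 or 2. The stress sensor ERN1 measured 55.8, 49.2 and 46.2 CPM in vehicle and 107, 111 and 107 CPM with DHT, and DNAJB9, a chaperone induced through it, rose 2.27-fold. CREB3L4, a membrane-bound factor of prostate secretory cells, rose 2.12-fold. DDIT3, the factor known as CHOP, fell 1.48-fold and the sensor ATF6 1.24-fold.

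RAB GTPases, which direct vesicles, gave 20 rises and 7 falls of 52. RAB3B, of regulated secretion, rose 3.15-fold to 363 ± 49.2 CPM, and the recycling RAB4A rose 2.73-fold to 139 ± 3.46 CPM. The fusion machinery had the opposite balance of calls: of SNARE, exocyst and synaptotagmin genes 7 rose and 16 fell among 54. Their median log2 fold change was -0.023, near the -0.0094 of all genes. In cells given paxillin siRNA the same list gave 11 rises and 12 falls, with a median of 0.018. With the nonspecific siRNA its largest rise was 1.38-fold, in SNAP23, a membrane fusion protein. SYTL2, an effector that docks RAB27 vesicles, measured 145, 136 and 139 CPM in vehicle and 14.3, 14.9 and 17.7 CPM with DHT. Secreted products themselves were split. The tested prostate secretory products gave 9 rises and 5 falls of 22. ACPP, prostatic acid phosphatase, measured 171, 181 and 166 CPM in vehicle and 50.5, 63.8 and 59.2 CPM with DHT, 2.99-fold lower. The secreted phospholipase PLA2G2A fell 3.66-fold. ORM1 had 0 vehicle counts and 184 with DHT, at least 54.4-fold higher against a floor of 3 counts over the group, though reads of ORM1 and its near-identical copy ORM2 could be split by the counting.

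**Figure D3:**
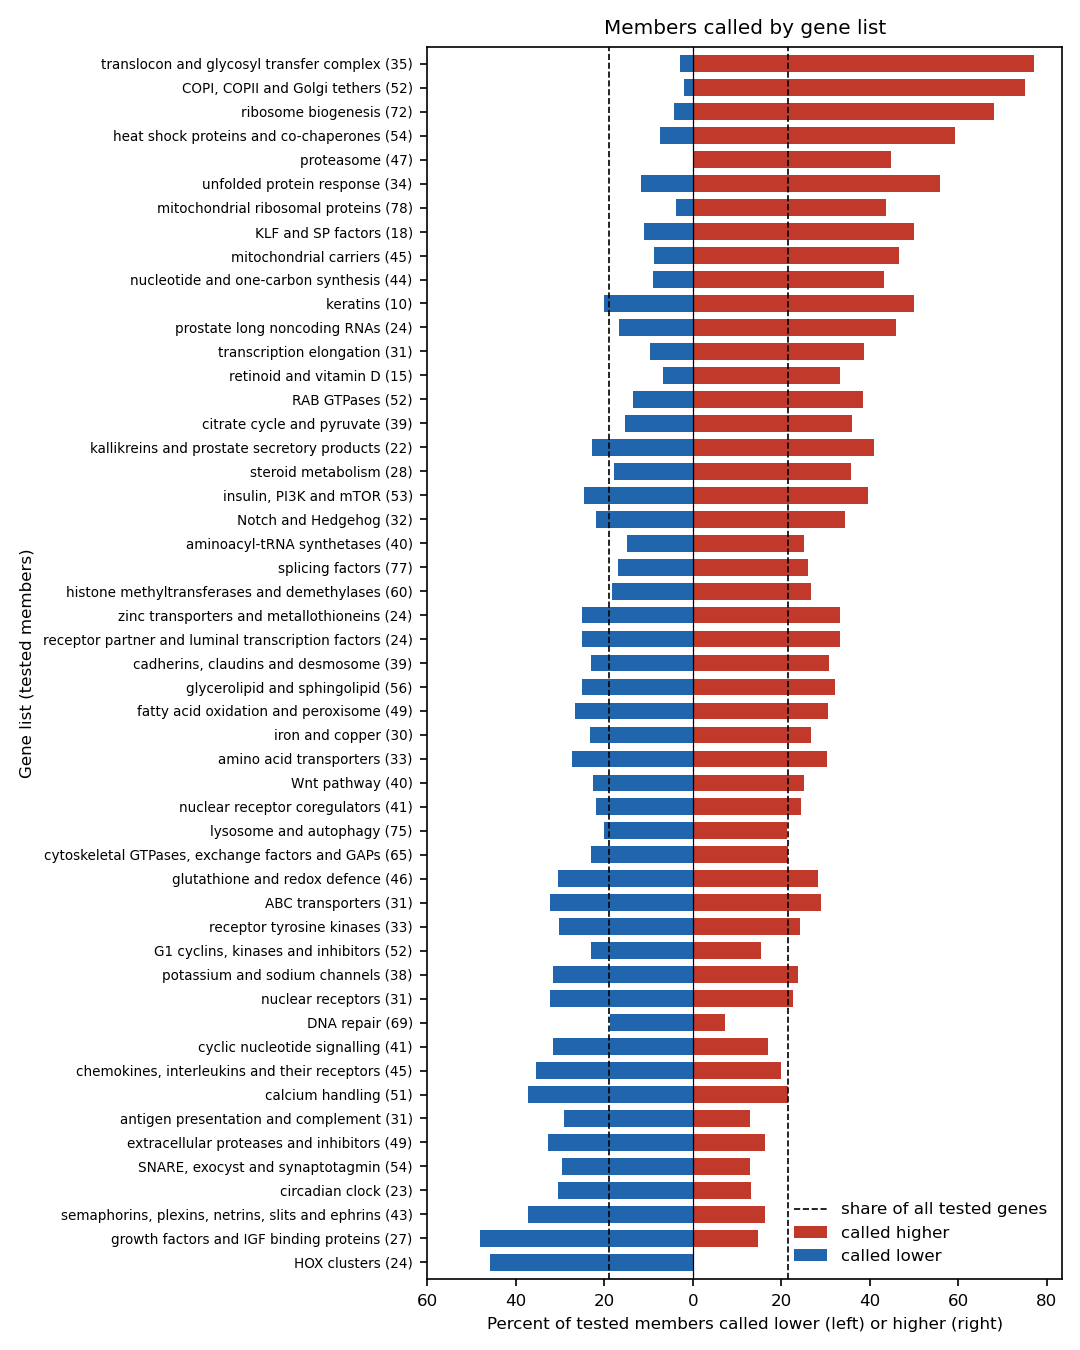
Bars give the percent of tested members of each of 51 gene lists called higher (red, right) or lower (blue, left), with the number tested in brackets, and the dashed lines mark the shares over all tested genes, 21.6% higher and 18.9% lower. The translocon list reaches 77.1% higher and the HOX list 45.8% lower with none higher.

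Genes of the citrate cycle and pyruvate use gave 14 rises and 6 falls of 39 (3 falls without DHT replicate 3). MPC2, a subunit of the mitochondrial pyruvate carrier, measured 201, 179 and 201 CPM in vehicle and 556, 559 and 553 CPM with DHT, 2.87-fold higher. IDH1, the cytosolic isocitrate dehydrogenase, rose 1.81-fold to 720.5 ± 11.9 CPM, and ACLY, which turns citrate into acetyl-CoA, rose 1.63-fold to 1752 ± 94.9 CPM. PCK2, mitochondrial phosphoenolpyruvate carboxykinase, fell 1.36-fold. Mitochondrial carriers gave 21 rises and 4 falls of 45 (2 falls without vehicle replicate 1 or DHT replicate 2). Among the rises were the pyrimidine nucleotide carriers SLC25A33 (1.87-fold) and SLC25A36 (1.71-fold).

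Fatty acid breakdown genes were divided, with 15 rises and 13 falls of 49, or 10 and 17 with upper-quartile scaling. ECI2, an enoyl-CoA isomerase, measured 155, 151 and 145 CPM in vehicle and 501, 488 and 477 CPM with DHT. The dehydrogenase ACADL rose 6.65-fold from 0.994 ± 0.236 CPM and the peroxisome biogenesis gene PEX10 2.74-fold. ACAA2, a thiolase of beta-oxidation, fell 1.98-fold and the carnitine acetyltransferase CRAT 1.54-fold. Among glycerolipid and sphingolipid genes 18 rose and 14 fell of 56 (14 and 17 with upper-quartile scaling). The rises included enzymes that begin or limit phospholipid synthesis, CHKA (2.34-fold) and PCYT2 (2.19-fold), and the monoglyceride lipase MGLL (2.36-fold). The falls included PLD1, phospholipase D1, with 127, 126 and 117 CPM in vehicle and 11.7, 12.3 and 13.4 CPM with DHT, and SPTLC3, a subunit of serine palmitoyltransferase, with 41.9, 41.0 and 39.9 and 3.47, 5.01 and 5.85 CPM. SGMS1, sphingomyelin synthase, fell 2.44-fold. The groups did not overlap for any of these 3.

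Nucleotide and one-carbon genes gave 19 rises and 4 falls of 44 (2 falls without DHT replicate 1). GNMT, glycine N-methyltransferase, measured 9.86, 8.99 and 9.44 CPM in vehicle and 57.3, 49.9 and 53.1 CPM with DHT. IMPDH1, of guanine nucleotide synthesis, rose 1.93-fold and PRPS1, which makes phosphoribosyl pyrophosphate, 1.51-fold. ATIC, of purine synthesis, and RRM1, a ribonucleotide reductase subunit, fell 1.29-fold and 1.23-fold.

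In redox defence, 13 of 46 genes rose (8 without DHT replicate 2) and 14 fell, or 7 and 16 with upper-quartile scaling. Glutathione reductase (GSR) rose from 208 ± 7.12 to 417 ± 4.94 CPM, and the peroxiredoxins PRDX4 and PRDX6 1.81-fold and 1.60-fold. The stress protein SESN3 fell from 379 ± 50.4 to 203 ± 23.8 CPM. Iron and copper genes gave 8 rises and 7 falls of 30 (5 and 11 with upper-quartile scaling), with the iron exporter SLC40A1 down 2.60-fold and its regulator HFE down 1.67-fold. Several zinc importers rose, among them SLC39A10 from 132 ± 28.1 to 379.9 ± 24.0 CPM and SLC39A6 1.63-fold, whereas metallothioneins MT2A and MT1X, which bind zinc, fell 3.59-fold and 2.60-fold. Counts over the whole zinc list were 8 rises and 6 falls of 24 (7 and 8 with upper-quartile scaling), and metallothionein paralogs are similar enough that their reads may be shared.

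Steroid metabolism genes gave 10 rises and 5 falls of 28. CYP11A1, which cleaves the side chain of cholesterol, rose from 0.251 ± 0.148 to 3.57 ± 0.630 CPM, and CYP1B1, an estrogen hydroxylase, rose 3.23-fold. AKR1D1, the 5-beta reductase, had 0 vehicle counts and 82 with DHT, at least 24.2-fold higher against the same floor. UGT2B15 and UGT2B17, which glucuronidate androgens, fell from 2.38 ± 0.903 to 0.160 ± 0.0919 and from 4.62 ± 1.40 to 0.929 ± 0.484 CPM. These 2 are near-identical copies whose reads may be split. Among retinoid and vitamin D genes 5 of 15 rose and 1 fell. ALDH1A3, which makes retinoic acid, measured 92.6, 94.1 and 86.5 CPM in vehicle and 306, 339 and 342 CPM with DHT, and GC, the vitamin D binding protein, fell 4.20-fold.

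Transporters of the plasma membrane changed in both directions. ABC transporters gave 9 rises (5 without vehicle replicate 2 or DHT replicate 3) and 10 falls of 31. ABCC4, which exports cyclic nucleotides and prostaglandins, measured 151, 163 and 146 CPM in vehicle and 914, 901 and 940.5 CPM with DHT, and the multidrug transporter ABCC1 rose 3.35-fold. The cholesterol exporter ABCA1 measured 17.2, 15.8 and 15.1 CPM in vehicle and 1.76, 2.57 and 2.32 CPM with DHT, 7.17-fold lower. Amino acid transporters gave 10 rises and 9 falls of 33 (9 and 10 with upper-quartile scaling). SLC43A1, which carries branched-chain amino acids, rose from 106 ± 8.38 to 461 ± 16.4 CPM. SLC38A4 had 1 vehicle count and 224 with DHT, which is 199 times as high (95% counting interval 35.3 to 7876). SLC6A20, a proline transporter, measured 10.8, 11.4 and 13.1 CPM in vehicle and 0.685, 0.392 and 0.337 CPM with DHT, and SLC38A9, the arginine sensor of lysosomes, fell 1.90-fold.

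Calcium handling genes fell more often than they rose (19 and 11 of 51, median -0.20). The cold-sensing channel TRPM8 measured 126, 98.1 and 68.7 CPM in vehicle and 476, 477 and 433 CPM with DHT, and the kinase CAMKK2 rose 2.65-fold to 827 ± 82.2 CPM. ATP2B1, a calcium pump of the plasma membrane, measured 239.7, 214 and 231 CPM in vehicle and 80.7, 80.2 and 90.7 CPM with DHT. Potassium and sodium channel genes gave 9 rises and 12 falls of 38 (median -0.33). The calcium-activated channels KCNMA1 and KCNN2 rose 3.31-fold and 3.21-fold. The background potassium channel KCNK5 fell from 53.5 ± 1.59 to 13.4 ± 2.73 CPM.

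Growth factors and IGF binding proteins gave 13 falls and 4 rises (2 without vehicle replicate 3 or DHT replicate 2, or with upper-quartile scaling) of 27, with a median of -0.48. ANGPT2, an angiopoietin, rose from 1.98 ± 0.274 to 14.5 ± 1.06 CPM and IGF1 from 9.21 ± 3.35 to 17.9 ± 1.05 CPM. The hormone STC1 fell 2.71-fold and FGF13 2.65-fold. Receptor tyrosine kinases gave 8 rises and 10 falls of 33. IGF1R, the receptor of IGF1, measured 65.6, 55.7 and 43.6 CPM in vehicle and 297, 243 and 218 CPM with DHT, 4.64-fold higher, and EGFR rose 1.86-fold to 276 ± 22.8 CPM. MET, the hepatocyte growth factor receptor, fell from 3.25 ± 0.595 to 0.603 ± 0.0381 CPM, the collagen receptor DDR2 2.97-fold and FGFR2 2.18-fold.

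Downstream, 21 of 53 genes of the insulin, PI3K and mTOR list rose and 13 fell. The rises included both positive and negative members: PIK3AP1, an adaptor of PI3K, rose 3.65-fold to 164 ± 14.7 CPM, and INPP4B, a phosphatase that opposes the pathway, rose from 0.808 ± 0.0778 to 8.96 ± 2.22 CPM. DEPTOR, an inhibitor of mTOR, measured 32.1, 31.1 and 35.3 CPM in vehicle and 10.7, 10.7 and 10.8 CPM with DHT. The adaptor GRB10 fell 1.81-fold to 399 ± 9.31 CPM, and the regulatory subunit PIK3R1 fell 2.01-fold.

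Wnt genes gave 10 rises and 9 falls of 40 (10 and 14 with upper-quartile scaling). WNT5A, a noncanonical ligand, measured 45.8, 51.9 and 54.6 CPM in vehicle and 6.13, 9.41 and 8.62 CPM with DHT, 6.32-fold lower. The receptor FZD5 rose from 19.3 ± 1.01 to 89.6 ± 1.43 CPM. Notch and Hedgehog genes gave 11 rises and 7 falls of 32 (8 and 8 with upper-quartile scaling). HES1, a target of Notch, rose 3.33-fold, and the Hedgehog receptor PTCH1 rose 2.36-fold, while the Hedgehog effector GLI3 fell 2.08-fold.

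Guidance molecules fell in 16 and rose in 7 of 43 cases (median -0.23). The semaphorin and VEGF coreceptor NRP1 measured 378, 335 and 310.4 CPM in vehicle and 111, 129 and 125 CPM with DHT, and its ligand gene SEMA3C rose 2.16-fold. Chemokine and interleukin genes gave 9 rises and 16 falls of 45. The chemokine CXCL12 rose from 13.2 ± 3.34 to 67.2 ± 9.04 CPM, and ACKR3, a scavenging receptor of CXCL12, measured 333, 268 and 258 CPM in vehicle and 46.9, 53.0 and 47.2 CPM with DHT, 5.83-fold lower. SOCS2, a suppressor of cytokine signalling, rose 3.75-fold.

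Cyclic nucleotide genes gave 7 rises and 13 falls of 41. AKAP12, a scaffold of protein kinase A, measured 1.39, 1.09 and 0.226 CPM in vehicle and 40.5, 18.7 and 19.3 CPM with DHT, and the kinase inhibitor PKIB fell 3.73-fold. Small GTPases of the cytoskeleton with their exchange factors and activating proteins gave 14 rises (9 without DHT replicate 1) and 15 falls of 65, or 10 and 24 with upper-quartile scaling. RHOU, an atypical member, measured 32.1, 28.7 and 24.7 CPM in vehicle and 347, 294 and 318 CPM with DHT, 11.3-fold higher. The exchange factor VAV3 fell from 1.63 ± 0.361 to 0.303 ± 0.0401 CPM. MYLK, myosin light chain kinase, which acts on the same cytoskeleton, measured 277, 332 and 340.0 CPM in vehicle and 24.8, 38.2 and 44.5 CPM with DHT.

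Of the cell junction genes 12 rose and 9 fell among 39 (10 and 10 with upper-quartile scaling, and a median of 0.041 that became -0.032). The desmosome plaque gene PKP1 went from 0.252 ± 0.206 to 6.03 ± 1.22 CPM, a log2 fold change of 4.85 ± 0.46, or 5.44 without vehicle replicate 1. The desmocollin DSC1 rose 5.61-fold and the tight junction gene CLDN3 2.42-fold, while P-cadherin (CDH3) fell 2.66-fold. Keratins rose in 5 of 10 and fell in 2 (1 without any single library other than vehicle replicate 2). KRT8, a luminal keratin, measured 410.5, 458 and 502 CPM in vehicle and 1305, 995 and 1058 CPM with DHT, and KRT19 rose 2.83-fold. KRT8 has processed pseudogenes that may share its reads.

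Extracellular proteases and inhibitors gave 8 rises and 16 falls of 49. ADAMTS1, a matrix metalloprotease, measured 442, 299.7 and 285 CPM in vehicle and 1393, 1061 and 1114 CPM with DHT. SERPINI1, the inhibitor neuroserpin, measured 42.8, 44.2 and 43.8 CPM in vehicle and 4.28, 6.54 and 7.72 CPM with DHT. Antigen presentation and complement genes gave 4 rises and 9 falls of 31. Beta-2 microglobulin (B2M), the light chain of class I molecules, measured 58.9, 56.5 and 56.7 CPM in vehicle and 142, 142 and 145 CPM with DHT. The complement protease C1R fell 2.59-fold. The 3 DHT libraries lay outside the vehicle range in each of these 4 genes.

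Genes that build ribosomes rose with small folds. Of the ribosome biogenesis genes 49 of 72 rose and 3 fell, the median being 0.32 on the log2 scale, and no member reached 2-fold. RRS1, an assembly factor of the large subunit, rose 1.67-fold, NOP16 1.61-fold and nucleolin (NCL) from 699 ± 7.68 to 955 ± 46.3 CPM. POLR1D, a subunit of polymerases I and III, fell 1.25-fold and UBTF, which binds ribosomal DNA promoters, 1.21-fold. Mitochondrial ribosomal proteins gave 34 rises and 3 falls of 78 (median 0.15), or 18 rises and 5 falls with upper-quartile scaling. Their 43.6% called higher was near the 42.5% of the group of genes with the highest mean CPM. In cells given paxillin siRNA the same list gave 12 rises and 4 falls, with a median of 0.055. With the nonspecific siRNA, MRPS18A rose most among these proteins, 1.96-fold, and MRPS6 fell 1.69-fold.

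Proteasome genes rose in 21 of 47 cases and fell in 0, with 13 rises and 1 fall under upper-quartile scaling. That share of rises, 44.7%, was near the 42.5% of the group of genes with the highest mean CPM. In cells given paxillin siRNA the list gave 17 rises and 1 fall. PSMD8, of the regulatory lid, measured 219.9, 211 and 223 CPM in vehicle and 421, 414 and 405 CPM with DHT (1.90-fold), and PSMA6, of the core particle, rose 1.51-fold. Heat shock proteins and co-chaperones gave 32 rises and 4 falls of 54 (median 0.25), with 21 rises and 5 falls with upper-quartile scaling and 2 falls left without DHT replicate 2. HSP90AA1, the inducible HSP90 that holds unliganded steroid receptors, rose 1.26-fold, and the co-chaperone BAG2 1.79-fold. Aminoacyl-tRNA synthetase genes (10 rises, 6 falls of 40) and lysosome and autophagy genes (16 and 15 of 75) were near the shares over all genes. With upper-quartile scaling they gave 8 and 11, with the median of 0.058 becoming -0.014, and 10 and 21. Without vehicle replicate 2 or DHT replicate 2, 10 lysosome and autophagy genes were called higher, and without DHT replicate 1, 9 were called lower. NPC1, which moves cholesterol out of lysosomes, rose 1.82-fold and the protease CTSB fell 1.46-fold.

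Splicing factors gave 20 rises and 13 falls of 77 (14 and 20 with upper-quartile scaling, and a median of 0.022 that became -0.051). ESRP2, an epithelial splicing regulator, rose from 97.5 ± 8.85 to 168 ± 2.68 CPM, and the neuronal regulators NOVA1 and PTBP2 fell 1.87-fold and 1.68-fold. Histone methyltransferase and demethylase genes gave 16 rises and 11 falls of 60 (11 and 18 with upper-quartile scaling, and 7 and 6 falls without vehicle replicate 2 and DHT replicate 3). The demethylase PHF8 measured 120.0, 95.6 and 88.7 CPM in vehicle and 309.6, 259 and 258 CPM with DHT, and KDM4B, a histone H3K9 demethylase, rose 1.78-fold. The H3K4 methyltransferase KMT2C fell 1.76-fold and the H3K4 demethylase KDM5A 1.56-fold.

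No HOX gene was called higher. These homeobox genes, which keep the position along the body axis, were tested in 24 cases, 11 of which fell, with a median log2 fold change of -0.68. The falls lay mainly in the HOXC cluster, where 7 of 8 tested genes fell (median -1.48), against 3 of 6 in HOXB, 1 of 9 in HOXA and 0 of 1 in HOXD. The log2 fold change of the HOXD gene was 0.55 and was not called. HOXC13 measured 54.5, 62.1 and 72.5 CPM in vehicle and 19.2, 21.7 and 21.4 CPM with DHT, and HOXC9 13.0, 19.8 and 24.0 and 3.30, 4.05 and 5.59 CPM. HOXC10 was the member of that cluster that was not called, with a log2 fold change of -0.69 ± 0.30 (edgeR quasi-likelihood test, Benjamini-Hochberg adjusted p = 0.0818). HOXA13, the last gene of its cluster, fell from 3.92 ± 0.863 to 0.988 ± 0.0530 CPM. HOXB13, at 618, 599.8 and 654 CPM in vehicle and 509, 503 and 479 CPM with DHT, kept most of its level.

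**Figure D4:**
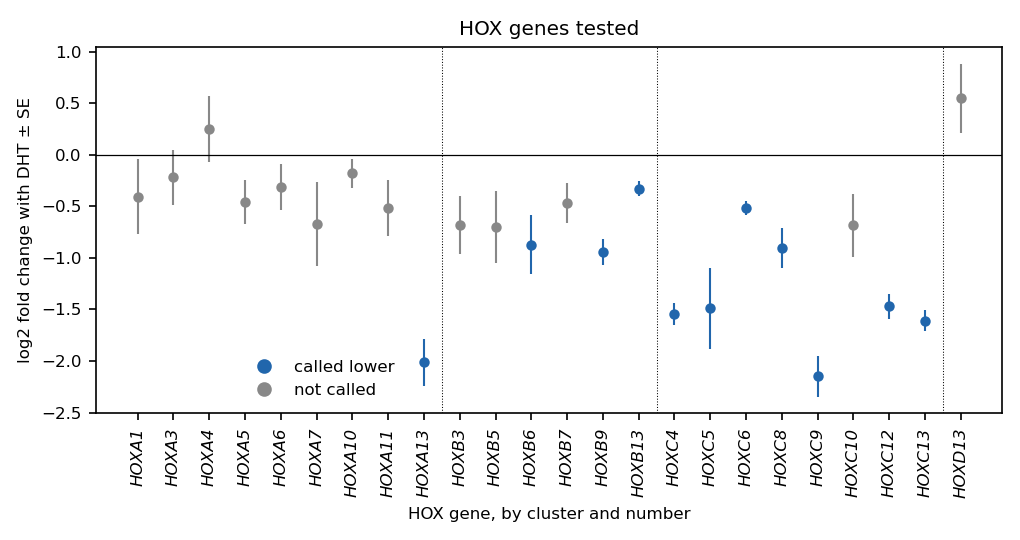
Log2 fold changes with DHT of the 24 tested HOX genes are plotted by cluster (dotted lines) and number, with SE bars, and genes called lower are blue. In HOXC all 8 points lie below 0 and 7 are called, while the HOXA points other than HOXA13 are not called.

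G1 cyclins, kinases and inhibitors gave 8 rises and 12 falls of 52, with a median of 0.046 that became -0.026 with upper-quartile scaling. CDK6 rose from 1.86 ± 0.614 to 6.25 ± 1.55 CPM, and CCNG2, a cyclin of arrested cells, fell from 141 ± 6.77 to 79.9 ± 5.14 CPM. DNA repair genes gave 5 rises and 13 falls of 69, leaving most uncalled. The counts were 2 rises and 20 falls with upper-quartile scaling, 8 and 15 with the replicate number as a block, 7 falls without vehicle replicate 3, 3 rises and 8 falls without DHT replicate 1, and 2 rises and 7 falls without DHT replicate 2. BARD1, the partner of BRCA1, measured 149.8, 124 and 112 CPM in vehicle and 46.4, 48.9 and 47.2 CPM with DHT. The mismatch repair gene PMS2 fell 2.88-fold, with pseudogene copies that may share its reads.

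Long noncoding RNAs of the prostate gave 11 rises and 4 falls of 24. PCAT18 and PCAT14 each had 1 vehicle count, and 102 and 92 with DHT, ratios of 90.4 (95% counting interval 15.9 to 3605) and 81.5 (14.3 to 3255). PRCAT47 rose from 0.141 ± 0.0752 to 1.94 ± 0.319 CPM. DRAIC fell from 15.4 ± 1.92 to 6.86 ± 0.137 CPM, CRNDE 1.97-fold and MALAT1, a nuclear RNA, 1.73-fold.

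Some of the changed genes were neighbours. Runs were sought among the tested genes with a position in GENCODE 29 (GRCh38), leaving out those not matched by symbol. In 29 runs at least 3 consecutive genes were each called and at least 2-fold changed in the same direction. They held 92 genes, with 11 runs higher and 18 lower. The longest run had 6 genes on chromosome 3, from 167735243 to 169869930: SERPINI1, GOLIM4, MECOM, ACTRT3, MYNN and LRRC31 fell, with log2 fold changes from -1.90 (MYNN) to -2.81 (SERPINI1). GOLIM4, a Golgi membrane protein, measured 255, 315 and 357 CPM in vehicle and 60.3, 82.5 and 88.3 CPM with DHT. A run of 4 on chromosome 9, from 104747688 to 105439171, held NIPSNAP3A, NIPSNAP3B, ABCA1 and SLC44A1. SLC44A1, a choline transporter, fell from 371 ± 51.2 to 126 ± 10.1 CPM and NIPSNAP3A 3.02-fold.

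A run of 4 higher genes on chromosome 16, from 20309572 to 20797581, held GP2, ACSM3, ACSM1 and THUMPD1. ACSM1 and THUMPD1, on the minus strand, lie within the span of ACSM3 on the plus strand, so their reads may not have been told apart from those of ACSM3. ACSM1 and ACSM3, medium-chain acyl-CoA synthetases, rose 19.4-fold and 2.45-fold, and THUMPD1, an RNA-modifying cofactor, measured 48.8, 46.5 and 44.3 CPM in vehicle and 104, 104 and 105 CPM with DHT. GP2 had 1 vehicle count. On chromosome 6, from 109440763 to 109483237, SMPD2, MICAL1 and ZBTB24 rose. The spans of MICAL1 and ZBTB24 overlap on the minus strand, so some of their reads may not have been told apart. MICAL1, which oxidises and takes apart actin filaments, measured 57.8, 50.4 and 46.7 CPM in vehicle and 318, 273 and 283 CPM with DHT. On chromosome 16, from 80597906 to 81033114, CDYL2, CMC2 and CENPN rose, with the centromere protein gene CENPN at 35.8, 37.3 and 38.0 CPM in vehicle and 247, 205 and 225 CPM with DHT. The spans of CMC2, on the minus strand, and CENPN, on the plus strand, overlap as well.

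Other runs joined genes of unlike function or transcripts of one locus. BARD1 fell with ABCA12, a lipid transporter, and AC072062.1, and MYLK with CCDC14 and KALRN. On chromosome 7, HOXA11-AS, HOXA13 and EVX1 fell, and on chromosome 12, HOXC13-AS, HOXC13 and HOXC12. The labels give a stranded kit, and the strand setting of the counting was not given in the sources used here, so reads of overlapping sense and antisense genes may not have been told apart. ELOVL2, a fatty acid elongase, rose 10.7-fold beside MAK, a male germ cell kinase, and ELOVL2-AS1.

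**Figure D5:**
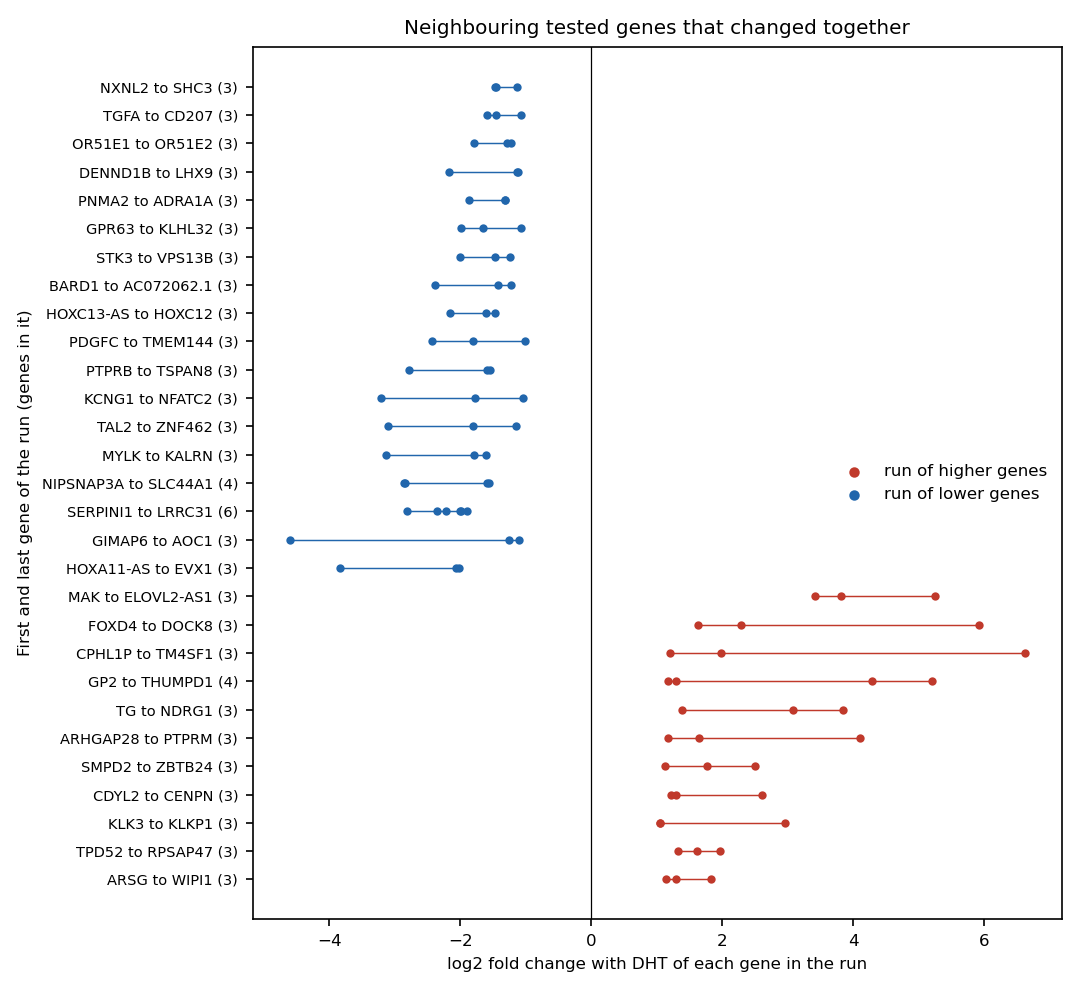
Each line is 1 of 29 runs of neighbouring tested genes that were called and at least 2-fold changed in the same direction, named by its first and last gene, and each point is the log2 fold change of 1 gene in it. The 18 lower runs (blue) and 11 higher runs (red) vary within themselves (genes with 0 or 1 vehicle counts have fitted folds that depend on the prior count). In FOXD4 to DOCK8, for example, DOCK8, which had few vehicle counts, reached 5.92 and CBWD1 1.63.

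Calls followed abundance. With the genes sorted by mean CPM, which is not scaled by length, into 5 equal groups, the share called higher rose from 6.05% in the lowest group to 42.5% in the highest, and the share called lower was 13.4%, 25.3%, 23.7%, 18.7% and 13.5% from the lowest to the highest. Changes of at least 2-fold were more frequent in the lowest group than in the highest: falls of that size were 12.1% of genes in the lowest group and 1.18% in the highest, and rises 5.83% and 3.63%. The part of counting depth in these shares was not tested.

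They also followed gene length. Among protein-coding genes sorted into 5 groups by their span on the genome, the share called higher went from 29.2% in the shortest group (up to 10.8 kb) to 20.7% in the longest (over 99.4 kb), and the share called lower from 13.2% to 29.9%. Rises of at least 2-fold were 3.21% of genes in the shortest group and 5.03% in the longest. Among the genes above the median level, the same shares were 44.0% to 30.2% and 7.69% to 25.0%, and rises of at least 2-fold were 2.22% and 5.23%. On chromosome 19, 27.8% of 1014 tested genes were called higher and 9.07% lower. That share called lower was the smallest of any chromosome compared. The share called higher was larger on chromosomes 18 (28.6%) and 21 (28.4%). Chromosomes were not matched for the length or level of their genes. Of 325 antisense RNAs, 72 (22.2%) were called lower and 26 were called higher. Of 227 long intergenic RNAs, 48 (21.1%) were called lower and 28 (12.3%) higher. Over all tested genes the shares were 18.9% lower and 21.6% higher. These RNAs had low levels, with medians of 1.90 CPM (antisense) and 1.26 CPM (long intergenic), and were not matched for level. The 2 lowest groups by mean CPM had 13.4% and 25.3% called lower, and 6.05% and 10.1% higher.

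The response was compared with that of cells given paxillin siRNA, which share no library with it. Of the 595 genes at least 2-fold higher here, 539 (90.6%) were also called higher there, where 20.1% of all tested genes were, and of the 833 at least 2-fold lower, 655 (78.6%) were also called lower, against 17.9% of all tested genes. All 24 genes with the largest folds among those reaching 5 CPM (12 in each direction) were called in the same direction there. Of the 8 genes that lost most CPM, 7 were called lower in both. The other was MAOA, with a log2 fold change of -0.46 ± 0.076 here and 0.000243 there, a difference that was not called (edgeR quasi-likelihood test of the interaction, Benjamini-Hochberg adjusted p = 0.186). The interaction test called 8 genes in all (0.0496% of those tested), of which KDM5A and PGC are described above. PXN, the gene the other siRNA targets, measured 149, 139 and 151 CPM in vehicle and 136, 121 and 122 CPM with DHT and was not called here (edgeR quasi-likelihood test, Benjamini-Hochberg adjusted p = 0.124). Its adjusted p was 0.0145 with the replicate block, and it was also called with upper-quartile scaling, without the filter on low counts and with these 6 libraries alone, over a range of 0.0143 to 0.769 across all 16 alternatives.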

How the data were processed

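RNA from 12 C4-2 libraries, 3 in each of 4 groups, was sequenced from a stranded mRNA kit, per the labels' protocols. The authors deposited whole-number read counts per gene symbol in 1 table. Per the submitters' processing notes, the tools were Trimmomatic 0.36, STAR 2.5.2b and Subread 1.5.0p3 with GRCh38. The annotation release and the strand setting of the counting were not given in the sources used here.

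Groups were taken from the labels. The 6 libraries with nonspecific siRNA held 11944906 to 28298195 counts, so 1 count was worth 0.0375 to 0.0815 CPM, and counting intervals and floors cover counting error only. Genes were kept by edgeR's filterByExpr (minimum count 10, minimum total 15), leaving 16115 of 56269, and scaled by TMM. All 12 libraries were fitted with 4 group means in edgeR 4.0.16 (R 4.3.3), and DHT was compared with vehicle by the quasi-likelihood test with Benjamini-Hochberg adjustment over all genes. The fit was tested on simulated data. CPM values use the same scaling.

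The members and the 51 gene lists were chosen with earlier results of these data known. Genes were named by rule: the 12 largest folds each way among called genes that reached 5 CPM and whose groups did not overlap (leaving out clone, LINC, microRNA and antisense names), the 8 largest gains and losses in CPM, up to 3 called members of each list each way reaching 1 CPM, members of runs of neighbours, and a panel with NR3C1, FOXA1, GATA2, HOXB13, EGFR, IGF1R and PXN. HSP90AA1, SEC61A1, NCL and HOXC10 were chosen after their values were seen. Some genes that the rule named are not reported here.

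Positions came from GENCODE 29 (13947 of 16115 genes matched by symbol, 86.5%) and promoter windows from RefSeq's GRCh38.p14. The replicate numbers, shared by the groups in the labels, were checked by correlating deviations from group means over 9283 genes. Same-numbered pairs of the 6 libraries gave r of 0.193 to 0.305, and differently numbered pairs -0.273 to 0.0205, so the numbers were taken to pair the samples. The main fit, with its SEs and calls, did not use this pairing. Only the alternative with the replicate number as a block did, and it called 7437 genes against 6534. DESeq2 1.42.0 and limma-voom 3.58.1 were among 16 alternatives.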

Additional observations from a re-analysis of the deposited data

Results flagged for a closer look

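The response to DHT differed between the nonspecific and the paxillin siRNA for 2 of the genes named here, by edgeR's quasi-likelihood test of the interaction with Benjamini-Hochberg adjustment. KDM5A, the H3K4 demethylase, had a log2 fold change of -0.64 with the nonspecific siRNA (87.9 CPM in vehicle, 56.4 with DHT) and -0.09 with paxillin siRNA (59.8 and 56.0 CPM), a difference of 0.55 (adjusted p = 0.0368). PGC, pepsinogen C, had log2 fold changes of 5.21 and 3.93, a difference of -1.28 (adjusted p = 0.0436), with vehicle means of 2.00 and 4.56 CPM and DHT means of 67.2 and 69.3 CPM. In both genes the vehicle means of the 2 siRNAs lay further apart in fold than the DHT means.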

How the results depend on the processing

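No named gene changed direction under any of the 16 alternatives. The balance of all calls turned with upper-quartile scaling, from 3481 higher and 3053 lower to 2707 and 3896, as did that of several lists, among them coregulators, fatty acid oxidation and splicing factors. Demanding a change larger than 1.2-fold left 1642 genes higher and 1568 lower, and an adjusted p under 0.01 left 2000 lower. With the replicate block, 3967 genes were higher and 3470 lower. Leaving out 1 library at a time gave 2992 to 3369 genes higher, 2509 to 2790 lower, 563 to 605 at least 2-fold higher and 730 to 855 at least 2-fold lower.

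Of 402 named genes, 398 kept their call with DESeq2 and with limma-voom, 399 with upper-quartile scaling and 400 with the replicate block, and between 382 and 388 did so without 1 of the 6 libraries. Demanding a change larger than 1.2-fold ended 51 of these calls, and an adjusted p under 0.01 ended 28. The replicate block ended the call of NXNL2 (adjusted p = 0.0518 in edgeR's quasi-likelihood test), made that of PXN, and changed no other. Of 102 list counts, 68 moved by more than 1.5 times when a change larger than 1.2-fold was demanded, 28 with an adjusted p under 0.01, 21 with upper-quartile scaling and 2 with the replicate block. Depth limits the genes with few counts: those with 0 to 3 vehicle counts carry only bounds or wide counting intervals, and vehicle replicate 1 had the fewest counts.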

Other observations

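Of the 8 genes that lost most CPM, ST3GAL1 and SELENBP1 have not yet been described. ST3GAL1, a sialyltransferase of the Golgi, had a mean of 1073 CPM in vehicle and 495 with DHT, a log2 fold change of -1.11 (SE 0.070). SELENBP1, a selenium-binding methanethiol oxidase, had 796 and 287 CPM, a log2 fold change of -1.47 (SE 0.090). The 3 vehicle and 3 DHT libraries did not overlap in either gene.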
